A study of Homo sapiens with 12 samples.

Results

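Interferon effectors are the genes that carry out the antiviral programme of a cell, and 10 of them are described here: the GTPases MX1 and MX2, the ubiquitin-like modifier ISG15 with its ligase HERC5 and its protease USP18, the small membrane proteins IFI6 and IFI27, the neighbouring genes IFI44 and IFI44L, and the radical SAM enzyme RSAD2. They are 10 of the 58302 genes in the deposited files. They were selected by name on the values of these libraries. The choice used the change after NUF2 knockdown in each cell line and the difference of that change between the lines. Those changes are therefore given as a description, and nothing is read from calls on them.

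The study knocked down NUF2, a subunit of the kinetochore complex that attaches chromosomes to spindle microtubules, in the renal carcinoma cell lines 769-P and ACHN. Cells were harvested 48 h after they received siNUF2, which combines the reagents siRNA-NUF2-2 with siRNA-NUF2-3, or a control siRNA (siControl), and 3 libraries were sequenced for each of the 4 groups. All 12 libraries therefore come from transfected cells, and the effect of either siRNA alone cannot be told apart from that of the mixture. Each line comes from 1 tumour, and the labels do not say whether replicates were separate cultures, so p-values measure the spread between these libraries only.

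Type I interferons bind the receptor IFNAR1 and IFNAR2, type III interferons bind IFNLR1 with IL10RB, and both activate the kinases JAK1 and TYK2. These phosphorylate transcription factors, among them STAT2, which join IRF9 and bind the interferon-stimulated response element in the promoters of the effector genes. Epithelial cells also enter the programme from within, when sensors of foreign nucleic acid activate IRF3 and IRF7.

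Both lines are labelled as clear cell renal cell carcinoma. PAX8, a transcription factor of the kidney lineage, was between 44.7 and 199 FPKM in the 12 libraries, where FPKM are fragments per kilobase of exon, scaled to the fragments mapped in the library. CA9, a defining marker of clear cell carcinoma, was at most 0.0389 FPKM in 769-P libraries and 0.121 in those of ACHN. CDH6, a cadherin of the renal tubule, was at most 0.00472 FPKM in ACHN cells and 2.35 to 8.19 FPKM in 769-P cells. Of 10 renal and epithelial markers, 9 had a mean over 0.5 FPKM in 769-P and 8 in ACHN. Depth was estimated from the FPKM at 29244012 to 38864836 reads per library. The 8 leukocyte markers summed to between 0.353 and 1.35 FPKM in every library, and PTPRC, the pan-leukocyte marker, was at most 0.0258. ITGAM, the highest of the 8, reached 0.567 FPKM in 769-P and 1.1 in ACHN libraries. Of 5 endothelial and fibroblast markers, 1 had a mean over 0.5 FPKM in ACHN, COL1A1 at 1.14 to 3.87, and 0 did in 769-P. In bulk RNA such as this, fewer cells with a transcript and less of it per cell cannot be told apart.

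NUF2 itself was read first as a check of the labels. In 769-P cells it was 4.17, 3.86 and 3.01 FPKM with siNUF2 in replicates 1, 2 and 3, against 19.4, 17.8 and 17.8 with siControl. In ACHN cells it was 2.16, 5.14 and 4.25 FPKM with siNUF2 against 11.6, 15.0 and 14.8. The groups did not overlap in either line.

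The third replicate of 769-P stood apart for the effector genes and has to be read before their values. In siNUF2 its FPKM were 13.7% to 41.7% (median 24.2%) of the mean of replicates 1 and 2 over the 10 genes, and in siControl they were 0% to 71.5% (median 40.0%). Over all genes tested the same median was 100% and 101%, with 5th and 95th percentiles of 69.2% and 135% in siNUF2 and of 67.7% and 136% in siControl. NUF2 stood at 74.9% and 95.5%. In ACHN cells the third replicate was on the high side, at a median of 134% in siNUF2 and 142.5% in siControl. What the replicate numbers mark is not given in the sources used here, and the part of this library pair in the results was not tested beyond the values without it.

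To show what these genes share in sequence, promoter windows from 250 bases before to 50 bases after the transcription start were taken from RefSeq (GRCh38.p14). A window was given for 8 of the 10 genes, and MX2 and USP18 had none in the table. The motif searched was 2 GAAA repeats with any 2 bases between them, on both strands, which is the core of the interferon-stimulated response element, and a strand-reversed match reads as 2 TTTC repeats. The stretches that hold the matches are printed 5′ to 3′ on the strand of the gene with the matches in capitals, and where matches overlap the capitals run on.

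MX1 (chr21:41420559-41420588, plus strand): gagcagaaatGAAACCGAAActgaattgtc
ISG15 (chr1:1013374-1013409, plus strand): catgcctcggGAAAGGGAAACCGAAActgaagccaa
HERC5 (chr4:88456984-88457064, plus strand): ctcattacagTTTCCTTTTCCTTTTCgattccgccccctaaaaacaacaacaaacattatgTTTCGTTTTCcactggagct
IFI6 (chr1:27672266-27672358, minus strand): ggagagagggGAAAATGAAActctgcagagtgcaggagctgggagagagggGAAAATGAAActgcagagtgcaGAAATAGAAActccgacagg
IFI27 (chr14:94110618-94110660, plus strand): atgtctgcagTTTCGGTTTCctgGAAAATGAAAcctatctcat
IFI44 (chr1:78649761-78649790, plus strand): gcacactgagTTTCAGTTTCctttctctga
IFI44L (chr1:78620274-78620394, plus strand): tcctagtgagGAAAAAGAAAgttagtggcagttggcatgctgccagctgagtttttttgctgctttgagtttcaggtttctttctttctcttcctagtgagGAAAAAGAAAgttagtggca
RSAD2 (chr2:6877622-6877651, plus strand): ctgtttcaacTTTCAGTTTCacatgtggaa

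All 8 genes with a window held at least 1 match, in 11 of their 13 windows, whereas 3.57% of the 35116 windows of all genes and 4.38% of 27305 genes did. Within a window HERC5 and IFI6 held 3 matches each, and ISG15, IFI27 and IFI44L held 2. MX1 held 1 match in each of 2 windows, and the strand-reversed match at -196 in the second of these is not printed. The matches of ISG15 overlap and share a GAAA, as do the first pair of HERC5. Counted from the start site, the first match began at -113 in ISG15, -125 in HERC5, -156 in IFI6, -164 in IFI44L and -145 in RSAD2, while the match printed for MX1 began at 12, after the start. A match is a description of the letters in the window and does not show that a factor was bound there. Of 50 other interferon-stimulated genes, 39 had a window and 28 of these (71.79%) held the motif.

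The first comparison asked what happened to the effector genes when NUF2 was knocked down in 769-P cells. The 10 genes were higher in siNUF2 than in siControl in each of the 3 same-numbered pairs of libraries. In 9 of them every siNUF2 library lay above every siControl library, and IFI27 was the exception. Over all 14160 genes tested in 769-P, 16.0% had siNUF2 libraries that all lay above siControl. Only 6 of the 10 effectors passed the filter on low values and were among the genes tested, and 5 of these 6 did. These counts are fixed in part by how the genes were chosen, and nothing is read from them.

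ISG15 (ENSG00000187608, chromosome 1, 1001138 to 1014540, plus strand), the modifier that is attached to newly made viral and host proteins, was among the strongest transcripts of the 10. In 769-P cells it was 89.3, 97.3 and 23.5 FPKM with siNUF2 in replicates 1 to 3, and 18.9, 13.7 and 6.56 FPKM with siControl. The groups did not overlap, but the third siNUF2 library came close to the first siControl library. The ratio of the means was 5.36, and the fitted log2 fold change was 2.30 (SE 0.602, n = 3 against 3).

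HERC5 (ENSG00000138646, chromosome 4, 88457117 to 88506163), the main ligase that joins ISG15 to its targets in human cells, had 2.37, 2.59 and 0.716 FPKM with siNUF2 and 0.463, 0.406 and 0.175 with siControl in 769-P cells. Its log2 fold change was 2.04 (SE 0.507) and the ratio of means 5.44. HERC5 passed the filter on low values (0.5 FPKM in at least 3 libraries) through its siNUF2 libraries only. USP18 (ENSG00000184979, chromosome 22, 18149899 to 18177397), the protease that takes ISG15 off again and also dampens the receptor at IFNAR2, had 11.3, 12.9 and 3.73 FPKM with siNUF2 and 2.5, 2.74 and 1.45 with siControl. Its log2 fold change was 1.88 (SE 0.472) and the ratio of means 4.17. USP18 has a near copy, USP41, which had at most 1 read in any library. The modifier, its ligase and its protease were thus all higher, by 4.17 to 5.44 times, in the same libraries.

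IFI6 (ENSG00000126709, chromosome 1, 27666061 to 27672218, minus strand), a small membrane protein known to restrain cell death and flavivirus replication, had the highest mean FPKM of the 10 in both 769-P groups, where it overlapped ISG15. It was 119, 124 and 28.4 FPKM with siNUF2 and 22.7, 17.5 and 4.32 FPKM with siControl in 769-P cells. The third siNUF2 library was above the first siControl library by a margin smaller than the spread within either group. The log2 fold change was 2.64 (SE 0.764), and the same-numbered differences were 2.40, 2.83 and 2.70 on the log2 scale. IFI6 was thus lower in both arms of replicate 3 and kept its difference there.

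IFI27 (ENSG00000165949, chromosome 14, 94104836 to 94116698), a related protein of the inner mitochondrial and nuclear membranes, had 6.95, 9.35 and 1.12 FPKM with siNUF2. With siControl it had 1.51, 1.14 and 0.208 FPKM, so the third siNUF2 library lay below the first and second siControl libraries. Its log2 fold change was 2.36, with the largest error of the 6 effectors fitted in this line (SE 0.892). Same-numbered libraries nevertheless differed by 2.14, 2.93 and 1.99 on the log2 scale.

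IFI44 (ENSG00000137965, chromosome 1, 78649796 to 78664078), which has a GTP-binding domain and antiviral activity, was the effector whose groups stood farthest apart relative to their error. It had 29.2, 38.5 and 14.1 FPKM with siNUF2 and 4.76, 5.08 and 2.27 with siControl in 769-P cells, and the lowest siNUF2 library was well above the highest siControl library. The log2 fold change was 2.70 (SE 0.425), rank 2 of 14160 genes from the highest, and the same-numbered differences were 2.60, 2.90 and 2.60. IFI44L (ENSG00000137959, chromosome 1, 78619922 to 78646145), its paralogue next to it on the chromosome, was much lower in FPKM, at 1.62, 2.78 and 0.448 with siNUF2 and 0.216, 0.225 and 0.0874 with siControl. FPKM divide by exon length, which was 10240 bases for IFI44L and 2038 for IFI44. In reads the siNUF2 libraries had 520, 819 and 141 for IFI44L against 1865, 2256 and 885 for IFI44. The ratio of means was 9.17, and IFI44L fell below the filter on low values in this line and was not fitted.

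MX1 (ENSG00000157601, chromosome 21, 41420304 to 41459214), a dynamin-like GTPase that traps viral ribonucleoproteins, was 1.82, 2.17 and 0.358 FPKM with siNUF2 and 0.24, 0.221 and 0.165 with siControl in 769-P cells. The third pair differed by 0.80 on the log2 scale, against 2.51 and 2.83 in the first and second. MX1 shares 236 exon bases with AP001610.1 on the other strand, and whether the counting used strand is not given in the sources used here. MX2 (ENSG00000183486, chromosome 21, 41361943 to 41409390), which blocks retroviruses at the nuclear pore, was low in FPKM over its 13047 exon bases. It had 52, 67 and 16 reads with siNUF2 and 3, 8 and 0 reads with siControl. RSAD2 (ENSG00000134321, chromosome 2, 6865806 to 6898239), also called viperin, makes a chain-terminating nucleotide, and it had 1.56, 2.08 and 0.41 FPKM with siNUF2 and 0.253, 0.245 and 0.0894 with siControl, a ratio of means of 6.89. MX1, MX2 and RSAD2 were below the filter on low values in 769-P cells and have no fitted value there.

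**Figure D1:**
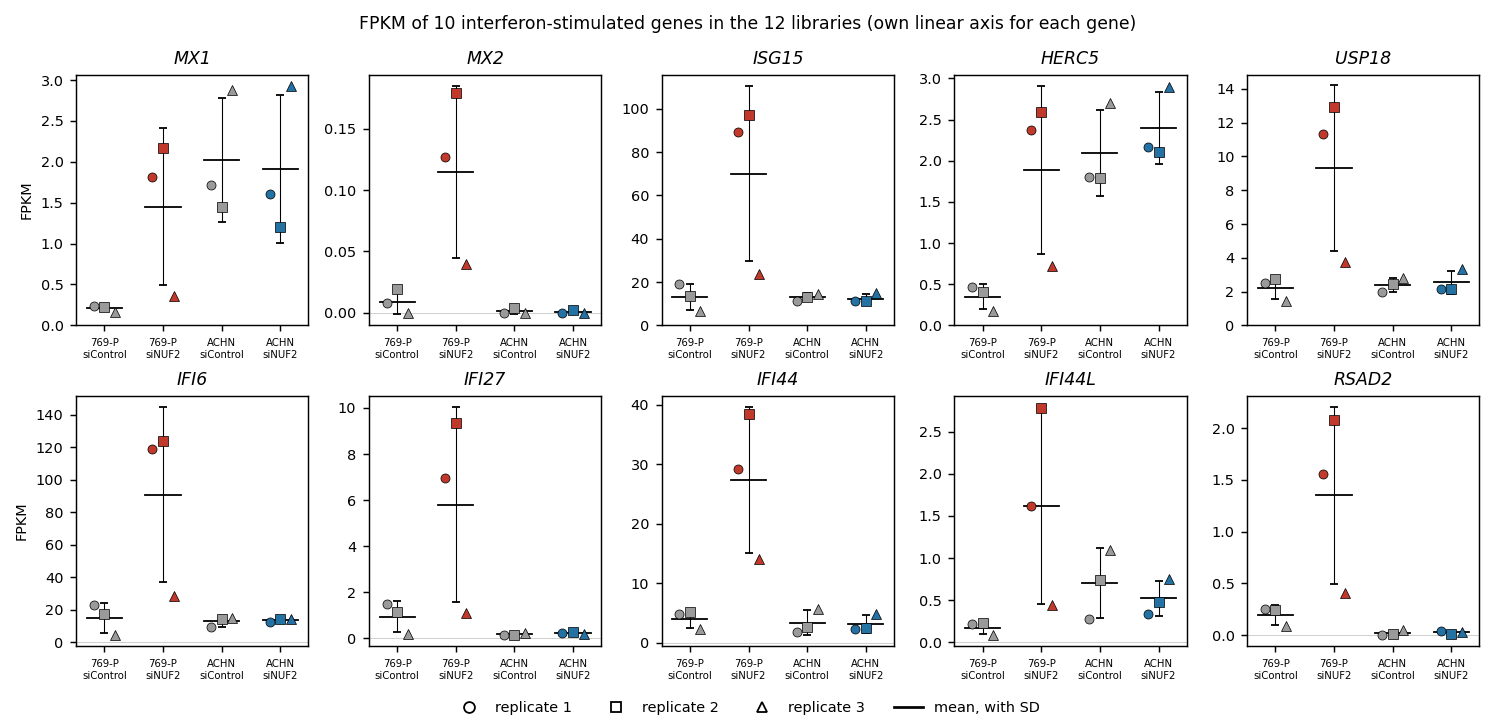
FPKM of the 10 effector genes (1 panel each, own linear vertical axis) in the 12 libraries, grouped by cell line and siRNA. Symbols mark the replicate number and the black lines the mean with its SD (n = 3). In 769-P cells the siNUF2 circles and squares stand far above siControl and the triangle of the third replicate lies much lower, as for ISG15 at 89.3, 97.3 and 23.5 FPKM; in ACHN cells the groups overlap in every panel.

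Of the 6 effectors fitted in 769-P, HERC5 and IFI44 passed an adjusted p under 0.05 (limma, Benjamini-Hochberg over all 14160 genes), where 5.29% of all genes tested passed as higher. With the replicate number as a block all 6 passed, against 13.6% of all genes. HERC5 was at the threshold: its call was lost with a pseudocount of 1, with no filter and when any 1 of the 3 siControl libraries was left out, and without any 1 siNUF2 library it fell below the filter. IFI44 was called under all 14 alternatives. As the genes were chosen on this contrast, nothing is read from either count. Without both 769-P libraries numbered 3, HERC5 was no longer above the filter, and the log2 fold changes of the other 5 were 2.53 for ISG15, 2.17 for USP18, 2.61 for IFI6, 2.54 for IFI27 and 2.75 for IFI44. Those 5 genes then passed, whereas the number of genes called fell from 1420 to 54.

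The spread between replicates was wide for these genes in 769-P cells. Among the fitted effectors the median SD of log2 values within a group was 1.06 in siNUF2 and 0.703 in siControl of 769-P, against 0.134 and 0.144 over all genes tested. The 95th percentile over all genes was 0.601 and 0.586. For the other interferon-stimulated genes tested the medians were 0.496 and 0.18. The corresponding medians of the effectors were 0.348 and 0.414 in ACHN cells, against 0.214 and 0.221 over all genes. There the other interferon-stimulated genes had similar medians, 0.33 and 0.368, and the 95th percentile over all genes was 0.924 and 0.928.

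The second comparison asked the same of ACHN cells, in which NUF2 was also reduced. The effectors differed little: the siNUF2 and siControl libraries overlapped for all 10 genes, and the 7 that could be fitted had log2 fold changes between -0.25 and 0.21. None of the 10, and so none of the 7 tested, had siNUF2 libraries that all lay above siControl, where 7.86% of the 15116 genes tested did.

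ISG15 in ACHN cells was 11.2, 11.3 and 14.8 FPKM with siNUF2 and 11.1, 13.2 and 14.7 with siControl, a log2 difference of -0.05 (SE 0.165). IFI6 was 12.2, 14.0 and 14.3 FPKM against 8.99, 14.3 and 15.1. IFI44 was 2.24, 2.39 and 4.86 FPKM against 1.77, 2.6 and 5.7. For each of these genes the third replicate was the highest of its group, in both arms, and the spread between replicates exceeded the difference between the siRNAs.

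HERC5 was the effector with the largest fitted increase in ACHN cells, at 2.17, 2.11 and 2.9 FPKM with siNUF2 against 1.8, 1.79 and 2.7 with siControl (log2 fold change 0.21), and it was higher in all 3 same-numbered pairs. USP18 was 2.17, 2.17 and 3.35 FPKM against 1.98, 2.45 and 2.78, and MX1 was 1.61, 1.2 and 2.93 against 1.72, 1.45 and 2.88. IFI44L, with the lowest fitted value (log2 fold change -0.25), was 0.336, 0.479 and 0.752 FPKM against 0.274, 0.735 and 1.1. These 4 genes had overlapping groups as well.

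The remaining effectors were barely detected in ACHN cells. IFI27 was 0.257, 0.285 and 0.183 FPKM with siNUF2 and 0.169, 0.156 and 0.219 with siControl. RSAD2 had at most 8 reads and MX2 at most 2 reads in any ACHN library, so small changes or decreases in them were not detectable at this depth. No effector was called in ACHN cells, with or without the replicate block, where 0.00% of all genes were called without it and 12.2% with it. NUF2, the target of the knockdown, was also not called without the block (log2 fold change -1.87, SE 0.32, limma adjusted p = 0.224), and it was called with it. A gene that misses the call in this fit is therefore not shown to be unchanged. At an unadjusted p under 0.05, 1238 of the 15116 genes passed in limma without the block.

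**Figure D2:**
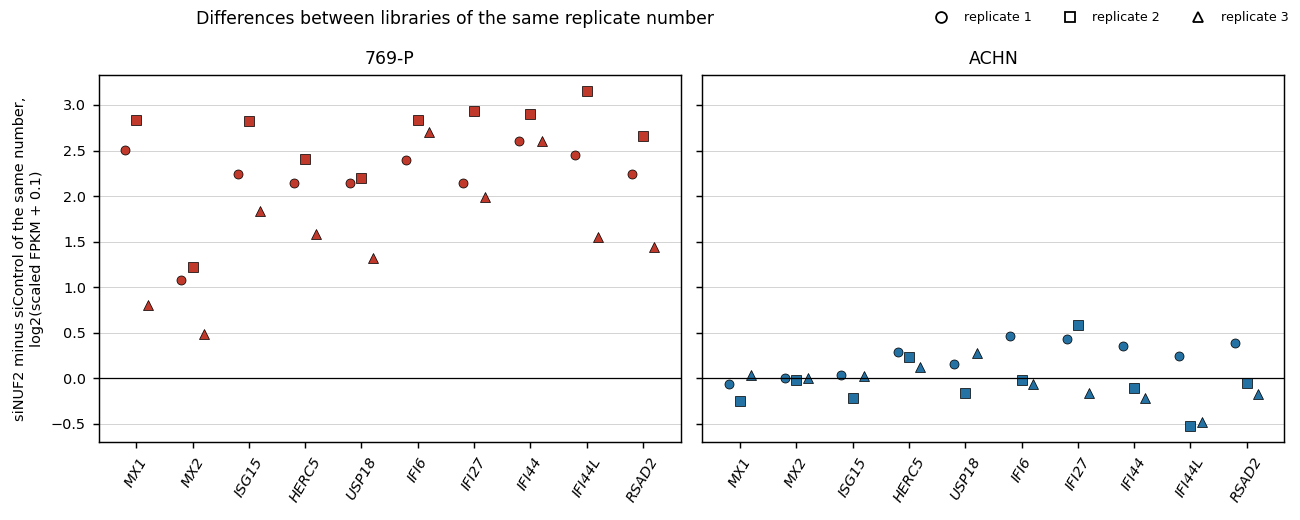
Difference between siNUF2 and siControl libraries of the same replicate number, on the log2(scaled FPKM + 0.1) scale, for the 10 effector genes in 769-P (left) and ACHN (right) cells; symbols mark the replicate number and the line marks no difference. All 769-P points lie above 0, from 0.49 for MX2 to 3.15 for IFI44L, and the ACHN points scatter around 0.

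The difference of the responses, which is the 769-P change less the ACHN change, was fitted in all 12 libraries for 8 of the 10 genes. It was 2.70 on the log2 scale for IFI44, 2.65 for IFI44L, 2.53 for IFI6, 2.36 for ISG15, 2.15 for MX1, 2.08 for IFI27, 1.85 for HERC5 and 1.80 for USP18. IFI44 and IFI6 are the genes named in the choice of the list for a clear difference. Without the block no gene in the whole table passed, so the share of genes called as higher was 0.00%, and 772 of 16570 genes had an unadjusted p under 0.05. With the block 7 of the 8 effectors passed, all but MX1, and 0.845% of all genes were called as higher. Among the 7, IFI27 passed the filter on low values through its 769-P libraries only. Nothing is read from these counts either, since the choice of genes used this difference.

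A contrast that the choice did not use is the level with the control siRNA, 769-P against ACHN under siControl. It shares its control libraries with the comparisons above. These libraries are from transfected cells at 48 h, so the contrast does not give the level in untreated cells. Here 6 of the effectors were fitted, and 2 of them were called, both as lower in 769-P. MX1 was lower in 769-P than in ACHN cells (log2 difference -2.70, SE 0.283, limma adjusted p = 0.000242), and HERC5 was lower too (log2 difference -2.31, SE 0.323, limma adjusted p = 0.000906). Each 769-P library was below each ACHN library for both genes, as the siControl values show: at most 0.24 FPKM of MX1 in 769-P against at least 1.45 in ACHN, and at most 0.463 FPKM of HERC5 against at least 1.79. Both genes passed the filter through their ACHN libraries only, the group where they were high, so their p-values are given as a description. With a pseudocount of 1 in place of 0.1 the log2 differences were -1.28 and -1.18. Over all 15377 genes tested, 29.6% were called lower and 31.9% higher in 769-P.

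ISG15, USP18, IFI6 and IFI44 did not pass in that contrast. Their log2 differences were -0.08 (SE 0.364, limma adjusted p = 0.856) for ISG15, -0.11 (SE 0.261, limma adjusted p = 0.74) for USP18, -0.03 (SE 0.598, limma adjusted p = 0.971) for IFI6 and 0.37 (SE 0.476, limma adjusted p = 0.525) for IFI44. A p that misses the threshold does not show that the levels are equal, and leaving out the third 769-P library turned the sign for ISG15 (0.34), USP18 (0.16) and IFI6 (0.70). Of the 4 genes below the filter, IFI44L was lower and RSAD2 higher in 769-P with no overlap, and IFI27 and MX2 overlapped. With no filter RSAD2 passed as higher in 769-P (log2 difference 1.23, SE 0.31, limma adjusted p = 0.0243). That call rests on counts near the floor, 36, 38 and 14 reads in 769-P siControl against 1, 3 and 8 in ACHN. The same-numbered differences were 1.73, 1.57 and 0.36.

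The order of the levels in FPKM was alike in the groups. It depends on exon length, from 865 bases for IFI6 to 13047 for MX2, and is not an order of read counts. In 769-P siNUF2 cells the mean FPKM was 90.7 ± 54.0 (SD, n = 3) for IFI6, 70.1 ± 40.5 for ISG15, 27.3 ± 12.3 for IFI44 and 9.31 ± 4.9 for USP18. IFI6 and ISG15 overlapped, as did ISG15 and IFI44, whereas IFI44 lay above USP18 in every library. IFI27, HERC5, IFI44L, MX1 and RSAD2 followed between 5.81 and 1.35 FPKM, each overlapping the next, and MX2 stood alone at 0.115. IFI6, ISG15, IFI44 and USP18 also held the 4 highest places in the other 3 groups, and MX2 was the lowest in each. HERC5 and MX1 had higher means than IFI27 in ACHN cells and lower ones in 769-P cells.

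The ISG15 pathway was followed further along its enzymes. UBE2L6, the conjugating enzyme, was 1.6, 2.25 and 0.518 FPKM with siNUF2 and 0.309, 0.454 and 0.309 with siControl in 769-P cells. Its log2 fold change was 1.58 (SE 0.48), and it passed the filter on low values through its siNUF2 libraries only. HERC6, the ligase of mouse cells and a close relative of HERC5, had a mean of 3.06 FPKM with siNUF2 and 0.779 with siControl (log2 fold change 1.75, SE 0.472). UBA7, the activating enzyme, had a log2 fold change of 0.47 (SE 0.155), TRIM25 of 0.43 (SE 0.225) and ARIH1, which has a ligase role outside the interferon response, of -0.03 (SE 0.092). Without the block none of the 5 passed in either line. With it UBA7, UBE2L6, HERC6 and TRIM25 passed as higher in 769-P, and TRIM25 passed as lower in ACHN cells. Over all genes tested, 13.6% passed with the block as higher in 769-P, and 12.2% in either direction in ACHN.

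Of the 5 conjugation enzymes, 4 were called lower in 769-P than in ACHN cells under siControl, where 29.6% of all genes tested were. UBE2L6 was 0.309, 0.454 and 0.309 FPKM in 769-P siControl libraries against 24.9, 21.4 and 34.3 in ACHN (log2 difference -5.84, SE 0.219, limma adjusted p = 3.63e-06). It passed the filter on low values through its ACHN libraries only. UBA7, HERC6 and TRIM25 were also lower in 769-P, with log2 differences of -1.94, -1.38 and -1.01 (limma adjusted p = 0.000426, 0.00611 and 0.0124). ARIH1 did not pass (log2 difference 0.10, limma adjusted p = 0.477). The substrate ISG15 was 13.1 ± 6.19 FPKM in 769-P and 13.0 ± 1.83 in ACHN cells under siControl (SD, n = 3).

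Upstream of the effectors, the 14 genes of interferon signalling moved less. In 769-P cells 12 were tested, and JAK1 alone passed as higher (log2 fold change 0.32, SE 0.0778, limma adjusted p = 0.0481), where 5.29% of all genes tested did. The call of JAK1 was lost when any 1 of the 6 libraries was left out, with limma adjusted p of 0.0174 to 0.75 over all alternatives. With the block JAK1 and IRF7 were among those that passed as higher, and IFNAR1 and IRF1 passed as lower. Over all genes 13.6% then passed as higher and 1978 of 14160 as lower. IRF7, which is itself induced by interferon, was 21.3, 24.4 and 8.81 FPKM with siNUF2 and 8.38, 7.57 and 4.66 with siControl. The groups of IRF7 did not overlap, and the third replicate was again the lowest of the siNUF2 libraries. STAT2, IRF9, IRF3, TYK2 and IFNAR2 did not pass in either fit, with log2 fold changes between -0.19 and 0.54.

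In ACHN cells 13 of the signalling genes were tested and none passed without the block, where 0.00% of all genes did. With the block STAT2 was among those that passed as lower, with a log2 fold change of -0.35, where 12.2% of all genes were called in either direction. Under siControl, IRF7 was the gene of this list called higher in 769-P (log2 difference 1.14, SE 0.239, limma adjusted p = 0.00562), and 6 genes were called lower. Over all genes tested 31.9% were called higher and 29.6% lower. Among the 6 were SOCS1, an inhibitor of JAK kinases, IFNLR1 and IRF1. The call of IRF1 was lost when any 1 of the 6 libraries but the second of ACHN was left out. IFNLR1, the receptor chain particular to type III interferons, was listed at 0 FPKM in every 769-P library and at 1.24 to 2.83 FPKM in ACHN cells. SOCS1 was at most 0.479 FPKM in 769-P siControl libraries. Both genes passed the filter on low values through their ACHN libraries only.

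The interferons themselves were at or near 0. In ACHN cells 9 of the 10 ligand genes examined had no read in any library, and IFNK had 1 read. In 769-P cells 5 had none, among them IFNA1 and IFNG. IFNL1, a type III interferon, had 10, 6 and 4 reads with siNUF2 and 1, 1 and 0 with siControl, and IFNB1 had 0, 4 and 1 against 0, 2 and 0. IFNE had fewer reads in total with siNUF2, at 4, 4 and 4 against 10, 3 and 6. IFNL2 had 5, 9 and 2 reads against 4, 0 and 0, and IFNL3 had 3, 7 and 2 against 5, 1 and 0, but these sequences are nearly identical and their reads cannot be told apart with certainty. Counts this small were below the filter and were not tested, and the summed FPKM of the 10 ligands were 0.45 to 1.24 with siNUF2 and 0.126 to 0.674 with siControl in 769-P cells, which overlap.

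A wider list of 50 interferon-stimulated genes gave the setting for the 10 effectors. In 769-P cells 45 were tested and all 45 had a log2 fold change above 0, with a median of 0.96 against -0.01 over all genes tested. Of these 20 passed as higher and none as lower, where 5.29% of all genes tested passed as higher. With the block 41 passed as higher, against 13.6% of all genes. The count without the block was 8 without the first siNUF2 replicate, 6 without the second and 34 without the third. It was 14 without the first siControl replicate, 7 without the second and 8 without the third. It was 15 without both libraries numbered 3 and 7 with no filter on low values. In ACHN cells 45 were tested and none passed, where 0.00% of all genes did, with a median of -0.06 against 0.01. With the block 2 passed as higher and 3 as lower, where 12.2% of all genes were called in either direction, so nothing is read from that count. This list too was chosen with results of these data known.

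The highest of that list in 769-P cells were IFIT1, which binds viral RNA that lacks cap methylation (log2 fold change 2.65, SE 0.514), OAS2, which makes the second messenger of RNase L (2.58, SE 0.655), and OASL (2.19, SE 0.542). OAS2 passed the filter on low values through its siNUF2 libraries only. The lowest of the list were GBP2 at 0.17, SHISA5 at 0.28 and PARP12 at 0.29. In ACHN cells the lowest were IFIT3 at -0.51, OASL at -0.48 and IFIT2 at -0.41, and the highest were IFITM3 and LAP3 at 0.27 and IFITM2 at 0.25. IFIT1 and OASL passed without the block in 769-P and none of these genes did in ACHN. With the block IFIT1, OAS2, OASL and SHISA5 passed as higher in 769-P, where 13.6% of all genes did. In ACHN IFIT3 and IFIT2 then passed as lower and IFITM3 and LAP3 as higher, where 12.2% of all genes were called in either direction.

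**Figure D3:**
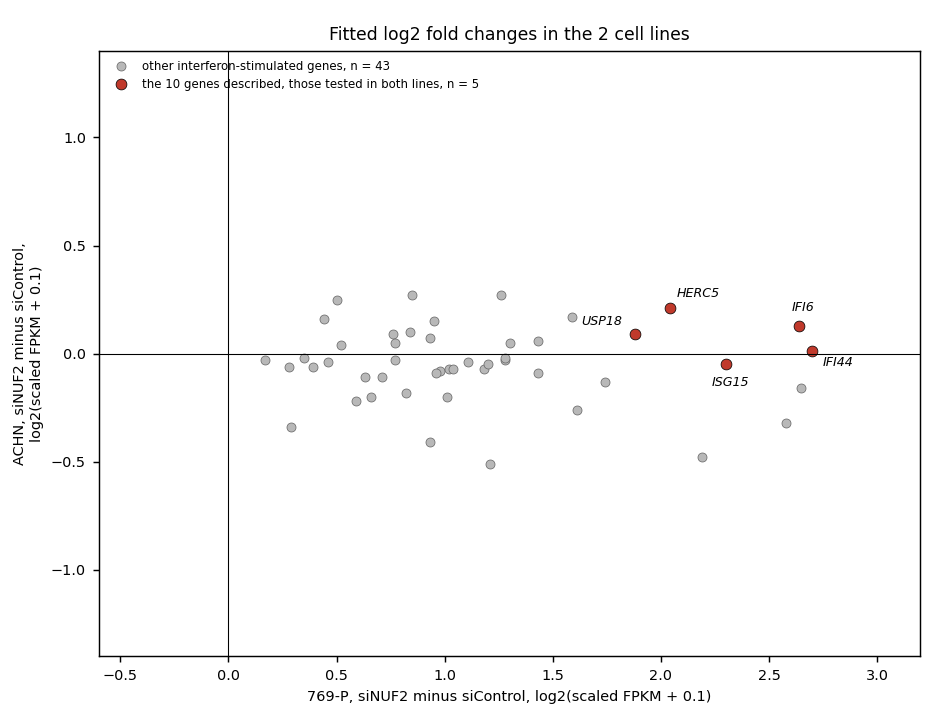
Fitted log2 fold changes (siNUF2 less siControl, on the log2(scaled FPKM + 0.1) scale) in 769-P (horizontal) and ACHN (vertical) cells, for the 5 effectors (red) and the 43 other interferon-stimulated genes (grey) that were tested in both lines. The red points lie between 1.88 and 2.70 on the horizontal axis and near 0 on the vertical axis, and all grey points lie to the right of 0.

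The genes whose pattern was most like that of the effectors were found by correlating each gene, centred within its line, with the mean of the 5 effectors tested in both lines over the 12 libraries. The highest Pearson r was 0.991 for HERC6, followed by OAS1 at 0.987, TRIM14 at 0.983, IFIT1 at 0.973, LAP3 at 0.967 and IFI35 at 0.958. In 769-P alone these r were between 0.986 and 0.997, and in ACHN alone they ran from 0.394 for IFIT1 to 0.932 for TRIM14. All points share their libraries and the low replicate 3 of 769-P, and the correlations are a description of 12 libraries. OAS1, the nearest after HERC6, was 27.9, 29.2 and 9.78 FPKM with siNUF2 and 7.73, 6.69 and 4.04 with siControl in 769-P cells, and 3.07, 3.62 and 4.67 against 2.96, 4.49 and 5.37 in ACHN cells.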

How the data were processed

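RNA of 769-P and ACHN cells was sequenced 48 h after transfection, with 3 libraries in each of 4 groups. The authors deposited FPKM, 1 value per gene and library; per the submitters' processing notes HISAT2 2.0.5, featureCounts 1.5.0-p3 and hg38 were used, and the strand setting is not given in the sources used here. Reads were estimated from FPKM and GENCODE 29 exon lengths, and 96.0% of values under 1000 reads were whole within 0.02 of a read. ISG15 was not whole with that length, so its read depth is approximate.

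FPKM were scaled by a trimmed mean of log ratios (30% and 5% trimmed), a gene was kept if it reached 0.5 scaled FPKM in 3 or more of the fitted libraries, and log2(FPKM + 0.1) was fitted with limma 3.58.1 (eBayes with trend, Benjamini-Hochberg, threshold 0.05) in R 4.3.3. Fold changes on this scale understate those of low genes. Each line was fitted alone, the difference of responses in all 12 libraries, and the siControl libraries between lines. Fits were tested on simulated data. No gene had the same value above 0 in 2 libraries of a group, so none was a copy. No count test was run as a main result.

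Libraries with the same number deviated together, with correlations of 0.355, 0.276 and 0.19 in 769-P and of 0.648, 0.735 and 0.46 in ACHN cells, so the numbers pair libraries within a line; what they mark is not stated. Alternatives were other pseudocounts, scalings, no filter, the replicate block, 1 fit of 12 libraries and each library left out; leaving out both 769-P libraries numbered 3 was chosen after seeing the data. The genes named are the 10 effectors, NUF2, the 6 genes most like the effectors' mean, the listed ISG15 conjugation, signalling and ligand genes, markers, and the 3 highest and 3 lowest of the 50 further interferon-stimulated genes per line. Members and lists were chosen with earlier results of these data known. Promoters are from RefSeq. A gene of the signalling list is not reported here.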

Additional observations from a re-analysis of the deposited data

Results flagged for a closer look

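The difference of the NUF2 knockdown response between the lines, 769-P less ACHN, passed limma's interaction test with the replicate block (adjusted p under 0.05) for 7 effectors: 2.36 on the log2 scale for ISG15, 1.85 for HERC5, 1.80 for USP18, 2.53 for IFI6, 2.08 for IFI27, 2.70 for IFI44 and 2.65 for IFI44L. In the planned fit without the block it passed for none of them, and ISG15 alone passed when both 769-P libraries numbered 3 were left out, an alternative chosen after seeing the data. These genes were chosen on this difference, so the values describe the choice and are no independent evidence. IFI27 also passed the filter on low values through its 769-P libraries only.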

How the results depend on the processing

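The number of genes called in 769-P was 1420, and it was 649 with no filter on low values, 3897 with the replicate block, 718 in 1 fit of all 12 libraries, 365 to 1144 with each library left out and 54 without both libraries numbered 3. In ACHN cells it was 0, and it was 1843 with the block and 165 in 1 fit of all 12 libraries. For the difference of responses it was 0, and it was 2 with a pseudocount of 0.01, 15 with no filter, 230 with the block, 0 to 1 with each library left out and 3 without both 769-P libraries numbered 3. Between the lines under siControl it was 9446, and 7301 to 8142 with each library left out. Replicate numbers do not pair libraries across the lines (correlations -0.055, -0.015 and 0.043), and a block there gave 9126. With a pseudocount of 1 the log2 fold change of HERC5 in 769-P was 1.04, and the differences of responses were 1.00 for MX1, 0.90 for HERC5 and 1.20 for IFI44L. Under siControl the sign turned for genes that were not called: without the third 769-P replicate the log2 difference was 0.34 for ISG15, 0.16 for USP18 and 0.70 for IFI6, without the third ACHN replicate it was 0.02, 0.01 and 0.12, and without the second ACHN replicate it was 0.08 for IFI6. With each library left out these ran from -0.41 to 0.34 for ISG15, from -0.27 to 0.16 for USP18 and from -0.48 to 0.70 for IFI6. MX1 and HERC5 stayed called in that contrast under the 9 alternatives that kept them, with adjusted p of 0.000228 to 0.00232 and of 0.000577 to 0.00619 (limma), and fell below the filter when an ACHN library was left out. The causes were not tested. Depth limits MX2 and RSAD2, which were near 0 reads in ACHN cells.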
